A study of Mus musculus with 2 samples.

Results

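Genes of synaptic adhesion were followed in the embryonic mouse midbrain: the neurexins Nrxn2 and Nrxn3, the neuroligins Nlgn1, Nlgn2 and Nlgn3, the leucine-rich repeat proteins Lrrtm1 and Lrrtm2, and the contactin-associated proteins Cntnap1 and Cntnap2. These members were chosen by name and are 9 of the 43346 genes in the tables. All 9 were found there. Midbrains of the B6NCrl strain, taken at embryonic day 11.5, were sequenced as total RNA in 1 group with no treatment. Midbrains of 109 embryos were pooled for replicate 1 and of 88 for replicate 2, with males and females mixed in each. The input per library was 10 ng of RNA over 200 nt in length, to which ERCC spike-ins (synthetic RNAs of known amount) were added. The embryos within a pool cannot be told apart, and with 2 libraries differences are described by their spread.

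Neurexins are presynaptic membrane proteins that bind partners across the synaptic cleft. Each neurexin gene has a long alpha form and, from a start further 3′, a short beta form, and alternative exons change which partners are bound. Neuroligins and Lrrtm proteins are postsynaptic neurexin ligands. Cntnap1 and Cntnap2 are distant relatives of the neurexins that bind contactins, Cntnap1 at the paranodal junctions of myelinated axons and Cntnap2 at the adjacent juxtaparanodes.

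The neuroligin exons on which splicing values turn are coding cassette exons of 60 nt, printed from mm10 in the direction of transcription. Capitals mark the 43 of 60 bases (71.7%) that Nlgn1 exon 4 shares with Nlgn3 exon 4. Nlgn3 has a second 60-nt cassette exon 5′ of it, which matches Nlgn1 exon 4 at 16 of 60 bases (26.7%).
Nlgn1 exon 4 of Nlgn1-205, chr3:25920178-25920237, − strand: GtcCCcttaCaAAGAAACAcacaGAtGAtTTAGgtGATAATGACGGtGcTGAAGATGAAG
Nlgn3 exon 4 of Nlgn3-206, chrX:101307075-101307134, + strand: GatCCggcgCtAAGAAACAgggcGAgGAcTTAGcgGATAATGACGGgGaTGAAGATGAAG
Both end in the run TGAAGATGAAG.

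Depth was 41760197 expected counts for replicate 1 and 49256468 for replicate 2, with 38884247 and 45975100 on genes. Levels are TPM, a transcript abundance per length scaled to a fixed total, in which spike-ins took 15.2% and 14.8%. Of the defining markers, all 6 of neurons (summed level 1184.64 and 1185.57 TPM in replicates 1 and 2), all 5 of neural progenitors (2459.64 and 2525.54 TPM) and all 4 of midbrain (207.85 and 209.11 TPM) reached 1 TPM in both libraries, led by Tubb3, Vim and Otx2. None of 5 Hox genes of hindbrain and spinal cord did (summed level 0.25 and 0.14 TPM), and 3 of those had 0 counts. Markers of blood, vessel and connective tissue cells were present too: all 4 erythroid markers (15225 and 15214 TPM, led by Hbb-y), all 4 endothelial (73.8 and 71.1 TPM, led by Cldn5), all 4 mesenchymal (677.66 and 648.94 TPM, led by Col3a1) and 3 of 4 microglial or macrophage markers (44.8 and 47.3 TPM, led by C1qb) reached 1 TPM in both. In each of the oligodendrocyte and skeletal muscle lists 1 of 4 did (Mbp and Actc1), with summed levels of 10.98 and 10.73, and 1.48 and 1.57 TPM. Their part in the levels below was not tested. These are whole-tissue libraries, in which fewer cells of a type and less RNA per cell cannot be told apart.

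In both libraries 8 of the 9 genes reached 1 TPM, here called detected, against 32.1% of all genes. Cntnap1 was the gene that did not. The median over the 9 was 7.335 TPM, against 0.045 TPM over all genes and 16.355 TPM over the 13895 detected genes. In order of mean level (± SD, n = 2) came Cntnap2 (18.5 ± 0.127 TPM), Nlgn3 (17.4 ± 1.42 TPM), Nrxn3 (14.1 ± 2.11 TPM), Nlgn2 (7.735 ± 0.148 TPM) and Nrxn2 (7.335 ± 0.0354 TPM). Below them were Lrrtm1 (6.395 ± 0.516 TPM), Nlgn1 (3.14 ± 0.325 TPM), Lrrtm2 (1.66 ± 0.453 TPM) and Cntnap1 (0.235 ± 0.00707 TPM). Neighbours in that order were called separate where the authors' deposited TPM intervals, whose level is not given, did not overlap, in both libraries. Cntnap2 and Nlgn3, Nlgn2 and Nrxn2, and Nrxn2 and Lrrtm1 were not separated, and Nlgn3 and Nrxn3 were separated in replicate 2 alone. The steps from Nrxn3 to Nlgn2 (1.82-fold), from Lrrtm1 to Nlgn1 (2.04-fold), from Nlgn1 to Lrrtm2 (1.89-fold) and from Lrrtm2 to Cntnap1 (7.06-fold) were separated in both.

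**Figure D1:**
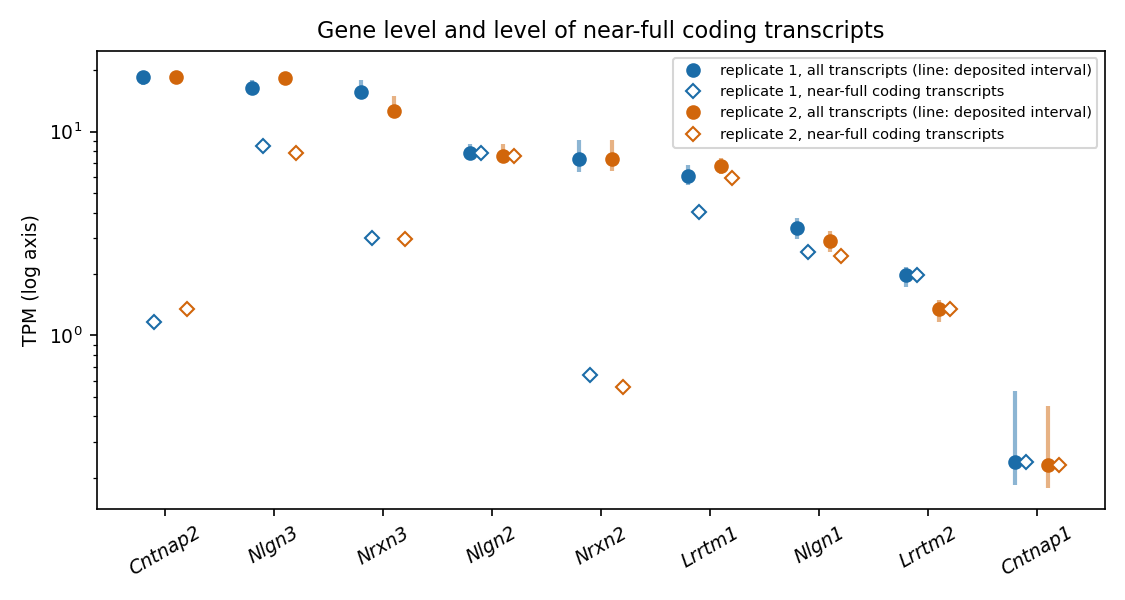
Level of each gene in TPM (log axis) in the 2 libraries, as circles with the deposited interval for all transcripts and as open diamonds for the near-full coding transcripts alone. The circle and diamond lie together for Nlgn2, Lrrtm2 and Cntnap1 and are farthest apart for Cntnap2 (18.44 against 1.16 TPM in replicate 1) and Nrxn2 (7.36 against 0.64 TPM).

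A gene's TPM sums all of its annotated transcripts, short fragments included, so it was also counted over near-full coding transcripts. These are the transcripts annotated as protein-coding whose coding length is at least 80% of the longest of the gene, a class defined after the transcript values had been seen. Over the 12496 detected protein-coding genes such transcripts held a median of 95.2% of the TPM, and they held under 50% in 14.3% of the genes. Among the 8 detected members the median was 62.3%. By the mean of the libraries 4 of 8 were under 50%: Cntnap2 (6.74% ± 0.641), Nrxn2 (8.17% ± 0.739), Nrxn3 (21.4% ± 3.12) and Nlgn3 (47.4% ± 6.42, SD, n = 2 throughout). Nlgn3 was on both sides of that limit, with 51.9% in replicate 1 and 42.8% in replicate 2. The count was also 4 with a minimum of 70% or of 90% of the longest coding length. By expected counts 3 of 8 were under 50%, against 8.18% of the genes. Near-full transcripts then held 83.7% and 78.1% of Nlgn3 in replicates 1 and 2, 44.0% and 50.04% of Nrxn3, and 21.6% and 20.5% of Nrxn2. Of the detected coding genes, 2.53% had a lower share than Cntnap2, 2.86% a lower share than Nrxn2, 5.54% a lower share than Nrxn3 and 13.2% a lower share than Nlgn3. On this count Nlgn3 led (8.49 TPM in replicate 1 and 7.87 in replicate 2), followed by Nlgn2 (7.84 and 7.63), Lrrtm1 (4.05 and 5.89), Nrxn3 (2.99 and 2.97) and Nlgn1 (2.57 and 2.44). Lrrtm2 had 1.98 and 1.34 TPM of near-full transcripts, Cntnap2 1.16 and 1.34, Nrxn2 0.64 and 0.56, and Cntnap1 0.24 and 0.23. Cntnap2 thus moved from the first place of the 9 to the seventh, and Nrxn2 from the fifth to the eighth.

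**Figure D2:**
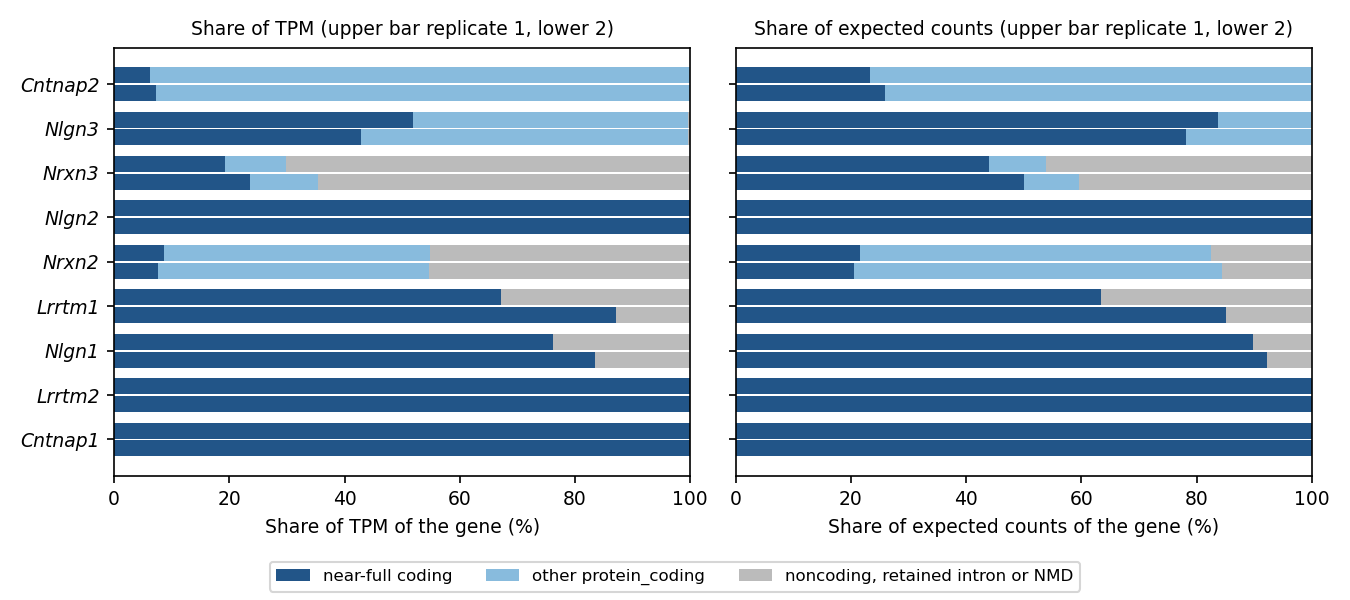
Share of each gene's TPM (left) and of its expected counts (right), in percent, held by near-full coding transcripts, other protein-coding transcripts and transcripts annotated as noncoding, retained intron or nonsense-mediated decay, with replicate 1 above replicate 2. Near-full transcripts held 23.3% and 25.9% of the Cntnap2 counts but 6.29% and 7.20% of its TPM.

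Nrxn3 (mm10 chromosome 12, 88722876 to 90334935, + strand) had 1424.67 expected counts and 15.56 TPM in replicate 1, and 1489.37 counts and 12.57 TPM in replicate 2. Its span of 1612 kb ranked 11 among 21951 annotated coding genes. The highest of its 13 transcripts by TPM was Nrxn3-204, annotated as a retained intron of 4 exons at the 5′ end, with 7.12 and 5.11 TPM. Nrxn3-205, the longest coding transcript and the only near-full one, had 2.99 and 2.97 TPM and took 44.0% and 50.04% of the counts. Replicate 1 was the higher for Nrxn3-204, and the libraries were close for Nrxn3-205.

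Nrxn2 (chromosome 19, 6418731 to 6544169, + strand) had 474.27 counts and 7.36 TPM in replicate 1, and 549.01 counts and 7.31 TPM in replicate 2. Its leading transcript was the beta form Nrxn2-202, with 3.13 and 3.18 TPM and 60.1% and 63.1% of the counts. Next by TPM came Nrxn2-213, a noncoding fragment of 576 nt at the 3′ end, with 1.74 and 2.54 TPM but 4.69% and 7.06% of the counts. The antisense gene Gm14964 (3.62 and 2.95 TPM) overlaps Nrxn2, and the sources used here do not say whether counting used strand, so reads of the pair cannot be told apart.

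The neurexins differed in which form carried the coding signal. Protein-coding transcripts held 54.8% and 54.6% of the TPM of Nrxn2 in replicates 1 and 2, and 29.8% and 35.3% of that of Nrxn3. Of these transcripts, 4 in Nrxn2 and 1 in Nrxn3 have the alpha start. Among protein-coding transcripts with an annotated start codon, those with the start codon of the longest transcript (alpha) held 17.0% of the TPM of Nrxn2 in replicate 1 and 15.0% in replicate 2. The start codon at 6498279, which is that of the beta form, held the other 83.0% and 85.0%. For Nrxn3 the alpha start held 64.4% and 66.9%, the start codon at 89813400 of Nrxn3-202 and Nrxn3-203 held 29.3% and 30.4%, and another at 89193106 held 6.25% and 2.70%. Alpha transcripts therefore held the smaller share in Nrxn2 and the larger in Nrxn3 in both libraries. By expected counts, which are not divided by length, the alpha share was 26.5% and 24.5% for Nrxn2 and 81.5% and 84.0% for Nrxn3.

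RefSeq (mm10) gives 3 start sites for Nrxn3. The first of them, at 88794504, is also the first base of Nrxn3-205 and an inner exon start of Nrxn3-204, Nrxn3-206, Nrxn3-208, Nrxn3-209 and Nrxn3-212, so the bases before it are not shown as a promoter. The 250 bases before the start of the 7-exon and 6-exon transcripts Nrxn3-202 and Nrxn3-203, whose start codon took 1.36 and 1.35 TPM, are shown with each CG dinucleotide in capitals.
Nrxn3, chr12:89812233-89812482, + strand: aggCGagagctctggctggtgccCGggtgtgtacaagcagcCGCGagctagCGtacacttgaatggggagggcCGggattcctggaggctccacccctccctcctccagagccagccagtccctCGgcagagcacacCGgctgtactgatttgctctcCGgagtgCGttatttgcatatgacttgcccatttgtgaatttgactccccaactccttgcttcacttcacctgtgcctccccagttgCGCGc
This window holds 12 CG dinucleotides, against a median of 6 over 32851 RefSeq windows of 250 bases, of which 66.5% hold fewer than 12. The window before the other RefSeq start of Nrxn3, at 88953390, holds 5 (44.4% hold fewer).

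Splice site 4 holds a coding cassette exon of 90 nt in both genes and sets binding to neuroligins and Lrrtm proteins. Summed over the annotated transcripts, those with this exon outweighed those that skip it in both neurexins. For Nrxn2 they held 3.58 and 3.66 TPM against 0.19 and 0.08 TPM, a share of 95.0% and 97.9%. For Nrxn3 they held 3.92 and 4.07 TPM against 1.05 and 0.82 TPM, a share of 78.9% and 83.2%. By counts the shares were 93.1% and 96.9% for Nrxn2 and 89.7% and 92.6% for Nrxn3. These shares come from the authors' transcript estimates and not from reads across junctions. For Nrxn2 most TPM with the exon was on the beta form Nrxn2-202 (3.13 and 3.18 TPM). Nrxn2-203, which skips it from the same start codon, was listed at 0 in both libraries. From the alpha start, transcripts with the exon had 0.45 and 0.48 TPM, against 0.19 and 0.08 TPM for Nrxn2-204, which skips it. For Nrxn3 the skipping transcripts are Nrxn3-203 and the nonsense-mediated decay transcript Nrxn3-213. Most Nrxn3 TPM with the exon was on Nrxn3-205 (2.99 and 2.97 TPM), the only protein-coding transcript with the alpha start. From the start codon at 89813400 the TPM estimates were in the reverse order, but not separated. There Nrxn3-203 had 0.90 and 0.76 TPM, against 0.46 and 0.59 TPM for Nrxn3-202, which holds the exon. The deposited intervals overlapped in both libraries: 0.43 to 1.35 and 0.32 to 1.15 TPM for Nrxn3-203, and 0.10 to 0.87 and 0.22 to 0.99 TPM for Nrxn3-202. The counts of Nrxn3-203 and Nrxn3-202 were 62.47 and 63.01 against 43.79 and 67.49.

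Nlgn3 (chromosome X, 101299168 to 101325963, + strand), a neuroligin of both excitatory and inhibitory synapses, had the largest counts of the 9, 2259.33 in replicate 1 and 2686.67 in replicate 2, with 16.36 and 18.37 TPM. Its TPM was led by Nlgn3-203 (7.80 and 10.44 TPM), a transcript of 1852 nt with an incomplete 3′ end, while the full-length Nlgn3-201 (7.06 and 7.19 TPM) held 69.98% and 71.7% of the counts. The 60-nt exon at 101307075, printed above, was held by transcripts with 8.49 and 7.87 TPM and skipped by Nlgn3-203 alone, which gives a share of 52.1% and 43.0%. By counts that share was 83.8% and 78.2%, so the side that held more in replicate 2 depends on the measure. Counts are not divided by length and so favour longer transcripts, here Nlgn3-201 of 8465 nt over Nlgn3-203 of 1852 nt. The 60-nt exon 5′ of it, in Nlgn3-206, had 0.64 TPM in replicate 1 and was listed at 0 in replicate 2. The noncoding gene Gm21986 (1.03 and 1.39 TPM) overlaps Nlgn3 on the same strand, which makes the split between these 2 genes uncertain.

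Nlgn2 (chromosome 11, 69823122 to 69837784, − strand), the neuroligin of inhibitory synapses, had 1069 counts and 7.84 TPM in replicate 1, and 1252 counts and 7.63 TPM in replicate 2. All of it was assigned to the near-full transcripts Nlgn2-201 (5.22 and 4.66 TPM) and Nlgn2-202 (2.62 and 2.97 TPM). The 51-nt cassette exon at 69830563 is skipped by Nlgn2-203, which was listed at 0 in both libraries.

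Nlgn1 (chromosome 3, 25426215 to 26332460, − strand), the neuroligin of excitatory synapses, had 675.9 counts and 3.37 TPM in replicate 1, and 633.57 counts and 2.91 TPM in replicate 2. The long transcript Nlgn1-205 led with 1.65 and 1.12 TPM and 76.6% and 66.0% of the counts. Transcripts with the 60-nt exon printed above, at splice site A, held 1.65 and 1.41 TPM against 0.92 and 1.03 TPM for those that skip it, a share of 64.2% and 57.8%. By counts, which favour longer transcripts, that share was 85.3% and 78.5%. Nlgn1-205, which holds the exon, is 11807 nt long, against 4272 and 3013 nt for the skipping Nlgn1-202 and Nlgn1-203. Nlgn1 spans 906 kb (rank 76 of 21951), and the antisense gene A830092H15Rik (2.50 and 2.26 TPM) overlaps its 5′ end.

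The 3 neuroligins were separated from each other in both libraries when all transcripts were counted. Nlgn3 exceeded Nlgn1 by 2.43 ± 0.26 on the log2(TPM + 0.1) scale (5.40-fold, n = 2) and Nlgn2 exceeded Nlgn1 by 1.28 ± 0.12 (2.42-fold). Nlgn2 was below Nlgn3, with a log2 ratio of -1.15 ± 0.14 (2.23-fold). With near-full transcripts alone that last ratio was -0.08 ± 0.05 (1.06-fold), and those of Nlgn3 and Nlgn2 over Nlgn1 were 1.67 ± 0.03 and 1.59 ± 0.02. With 2 libraries the smallest p of an exact sign-flip test is 0.5, so pairs are described by intervals and spread.

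Lrrtm1 (chromosome 6, 77242689 to 77257791, + strand) had 414 counts and 6.03 TPM in replicate 1, and 538 counts and 6.76 TPM in replicate 2. It lies inside the alpha-catenin gene Ctnna2 (42.33 and 37.98 TPM) on the opposite strand. Lrrtm1-203 led with 3.27 and 3.09 TPM. Lrrtm1-202 was estimated at 0.78 TPM in replicate 1 and 2.80 in replicate 2. The nonsense-mediated decay transcript Lrrtm1-201 was estimated at 1.98 and 0.87. For both transcripts the deposited intervals overlapped, so the libraries were not separated in this split. The intervals were 3.13e-06 to 3.14 and 1.35 to 4.10 TPM for Lrrtm1-202, and 1.22 to 2.82 and 0.40 to 1.51 TPM for Lrrtm1-201.

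Lrrtm2 (chromosome 18, 35209003 to 35215024, − strand) had 295 counts and 1.98 TPM in replicate 1, and 239 counts and 1.34 TPM in replicate 2. It lies inside Ctnna1 (118.79 and 113.37 TPM), again on the opposite strand. Lrrtm1 exceeded Lrrtm2 by 1.91 ± 0.49 on the log2 scale (3.75-fold, n = 2), with intervals apart in both libraries. How many reads of the surrounding catenin genes were counted on the Lrrtm genes was not tested. Among the 3 alpha-catenin genes Ctnna3 was close to 0 (0.04 and 0.01 TPM).

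Cntnap2 (chromosome 6, 45059357 to 47304213, + strand) had 920 counts and 18.44 TPM in replicate 1, and 1140 counts and 18.62 TPM in replicate 2, the highest level of the 9 genes. At 2245 kb it ranked 5 of 21951 coding genes by span. Most of its signal was on the short transcript Cntnap2-201, a feature singled out after its values were seen. Cntnap2-201 spans 47244453 to 47299570 at the 3′ end of the gene, with 4 exons and a coding length of 324 nt. It had 17.28 TPM in both libraries, 93.7% and 92.8% of the gene's TPM, and 76.7% and 74.1% of its counts. The full-length Cntnap2-202, with 24 exons, had 1.16 and 1.34 TPM. The files give these transcripts as 1625 and 6983 nt long, whereas the reference annotation (GENCODE M21, later than the M4 of the files) gives 1540 and 9827 nt, so the split rests on models that have since changed.

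The starts of the long and the short form differ in sequence. RefSeq places them at 45060061, the first base of Cntnap2-202, and at 47244396, which is 9 bases from the annotated start of Cntnap2-205 and lies before the start of Cntnap2-201. The 250 bases before each are shown with CG dinucleotides in capitals.
Cntnap2 long form, chr6:45059811-45060060, + strand: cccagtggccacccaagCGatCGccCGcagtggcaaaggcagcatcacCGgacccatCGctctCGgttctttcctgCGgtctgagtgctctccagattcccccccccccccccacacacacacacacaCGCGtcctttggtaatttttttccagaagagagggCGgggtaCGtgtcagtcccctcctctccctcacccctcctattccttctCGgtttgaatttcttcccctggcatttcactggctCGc
Cntnap2 short form, chr6:47244146-47244395, + strand: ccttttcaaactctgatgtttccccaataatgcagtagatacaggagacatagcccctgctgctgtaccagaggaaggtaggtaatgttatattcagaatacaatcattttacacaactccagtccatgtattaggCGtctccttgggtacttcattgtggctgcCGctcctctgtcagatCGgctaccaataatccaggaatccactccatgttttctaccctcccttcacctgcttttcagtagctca
The long form's window holds 13 CG dinucleotides (68.5% of the 32851 RefSeq windows hold fewer) and the short form's holds 3 (29.0% hold fewer). The base G and C content is 59.6% and 45.2%. RefSeq entries were found for 5 of the 9 genes (Nrxn3, Nlgn1, Nlgn2, Lrrtm1 and Cntnap2) and were not used for Nrxn2, Nlgn3, Lrrtm2 and Cntnap1.

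Cntnap1 (chromosome 11, 101170523 to 101190724, + strand) had 35 counts and 0.24 TPM in replicate 1, and 40 counts and 0.23 TPM in replicate 2. It was the lowest of the 9 in both. Cntnap1 was below Cntnap2 with a log2 ratio of -5.80 ± 0.04 (55.6-fold, n = 2), or -2.01 ± 0.17 (4.02-fold) with near-full transcripts alone. At this low level the size of the ratio depends on the 0.1 TPM added. The log2 ratio over all transcripts was -6.30 with nothing added and -3.98 with 1 TPM added. Of the oligodendrocyte markers, the myelin genes Mog, Mag and Mobp had 0.14 to 0.35 TPM, while Mbp had 10.29 and 9.91. The gene Plekhh3 (5.55 and 4.45 TPM) overlaps the 5′ end of Cntnap1 on the opposite strand.

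All 6 pairs within families were apart in both libraries. The remaining one is Nrxn2 against Nrxn3, with a log2 ratio of -0.92 ± 0.21 (1.89-fold, n = 2), or -2.14 ± 0.11 (4.41-fold) over near-full transcripts. The largest ratio of the 6 was that of the Cntnap genes. By the mean the smallest was that of the neurexins, but in replicate 1 that of Nlgn2 to Nlgn3 was slightly smaller (-1.05 against -1.07). Over near-full transcripts the Nlgn2 to Nlgn3 ratio was the smallest. The ratios of the neurexins (-2.14 ± 0.11) and of the Cntnap genes (-2.01 ± 0.17) were the largest and lay within their spread of each other. Their order is not settled, because the 0.1 TPM added to each level weighs on Cntnap1 at 0.24 and 0.23 TPM.

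Between the 2 pools no member differed by as much as 2-fold. None of 9 passed both thresholds of a two-sided exact binomial test on counts (Benjamini-Hochberg adjusted p under 0.05 over all genes, and at least 2-fold), against 2.94% of 17148 tested genes. Without the 2-fold minimum 3 of 9 passed, against 35.5% of all, and the count at an unadjusted p under 0.05 was also 3. All 3 were lower in replicate 2: Lrrtm2 (log2 ratio -0.55, exact binomial adjusted p = 8.56e-05), Nlgn1 (-0.34, adjusted p = 0.000157) and Nrxn3 (-0.18, adjusted p = 0.00282). With an assumed coefficient of variation of 0.1 between libraries none passed edgeR's exact test at any fold, and 1 had an unadjusted p under 0.05. The test compares 2 libraries of 1 group and not 2 conditions. For Lrrtm2 alone the deposited intervals of the libraries did not overlap, against 22.4% of detected genes. The median absolute log2 ratio was 0.06 over the 9 genes and 0.14 over all tested genes. In all 7 detected members with at least 2 transcripts the leading transcript was the same in both libraries, against 91.4% of detected genes with at least 2 transcripts.

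**Figure D3:**
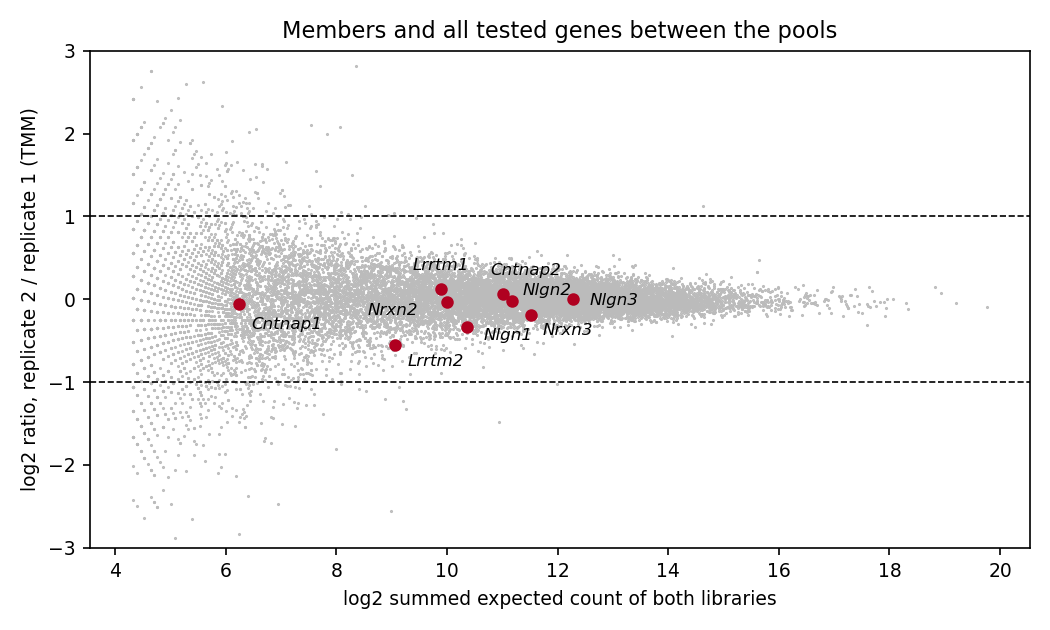
Log2 ratio of replicate 2 to replicate 1 (TMM-scaled) against the log2 summed expected count for the 17148 tested genes in grey and the 9 genes in red, with dashed lines at 2-fold. All 9 lie between the lines, Lrrtm2 lowest at -0.55, and 48 tested genes lie beyond the vertical limits of the plot.

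Most partner genes of the 9 were present at low to moderate levels. Of 87 listed partners, 67 reached 1 TPM in both libraries, with a median over all 87 of 5.86 TPM, against 32.1% of all genes and the median of 16.355 TPM over detected genes. Among other neurexin ligands and family members 14 of 19 were detected, led by the latrophilin Adgrl2 (69.8 ± 2.84 TPM), the dystroglycan gene Dag1 (39.6 ± 3.68 TPM) and the calsyntenin Clstn1 (29.1 ± 4.23 TPM). The cerebellins Cbln1 and Cbln2, secreted bridges between neurexins and postsynaptic receptors, had 6.465 ± 0.983 and 10.5 ± 0.502 TPM. Lrrtm3 and Lrrtm4, the other members of the Lrrtm family, had 1.80 ± 0.311 and 3.255 ± 0.134 TPM.

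Of the adhesion partners around the receptor phosphatases 18 of 20 were detected, with Ptprs (74.2 ± 3.91 TPM), Flrt3 (72.35 ± 0.764 TPM) and the phosphatase gene Ptprf (43.3 ± 2.71 TPM) highest. Of the scaffolds that bind the cytoplasmic tails 18 of 21 were detected. They were led by Lin7c (122.0 ± 14.6 TPM), Dlgap4 (103.2 ± 4.38 TPM) and Apba2 (49.6 ± 5.57 TPM). Dlg4, the PSD-95 gene whose product binds neuroligins, had 10.3 ± 3.18 TPM, and Gphn, which encodes gephyrin of inhibitory synapses, had 15.3 ± 0.0141 TPM.

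All 8 regulators of neuroligins and of neurexin splicing were detected. Ptbp2, a splicing regulator of developing neurons, led with 227.4 ± 11.0 TPM, ahead of Khdrbs1 (145.2 ± 0.00707 TPM) and the protease gene Adam10 (51.6 ± 3.37 TPM). Khdrbs2 and Khdrbs3, whose proteins act on the neurexin splice site 4 exon, had 9.295 ± 0.516 and 13.1 ± 0.191 TPM. The neuroligin inhibitors Mdga1 and Mdga2 had 4.565 ± 0.431 and 2.655 ± 0.290 TPM.

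The contactin and node-of-Ranvier list had the smallest share of detected partners of the 6 lists, 7 of 16. Its highest members were Epb41l3 (42.15 ± 1.499 TPM), Nrcam (28.5 ± 0.926 TPM) and Cntn2 (23.3 ± 0.240 TPM), the last the contactin bound by Cntnap2. Cntn1, the contactin partner of Cntnap1, had 5.945 ± 0.389 TPM. The juxtaparanodal potassium channel genes Kcna1 and Kcna2 had 0.51 ± 0.0566 and 0.065 ± 0.0354 TPM, and Cntnap3, Cntnap4 and the 3 Cntnap5 genes were all under 1 TPM.

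Between the pools 3 of 83 tested partners passed the 2-fold test, against the 2.94% of all genes given above. These were named after their values were seen. Il1rapl1 was higher in replicate 2 (16 and 41 counts, log2 ratio 1.06, exact binomial adjusted p = 0.0249). Cntnap5a (43 and 17 counts, -1.54, adjusted p = 0.000447) and Cntnap5b (39 and 22 counts, -1.05, adjusted p = 0.0163) were lower. All 3 were under 1 TPM.

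**Figure D4:**
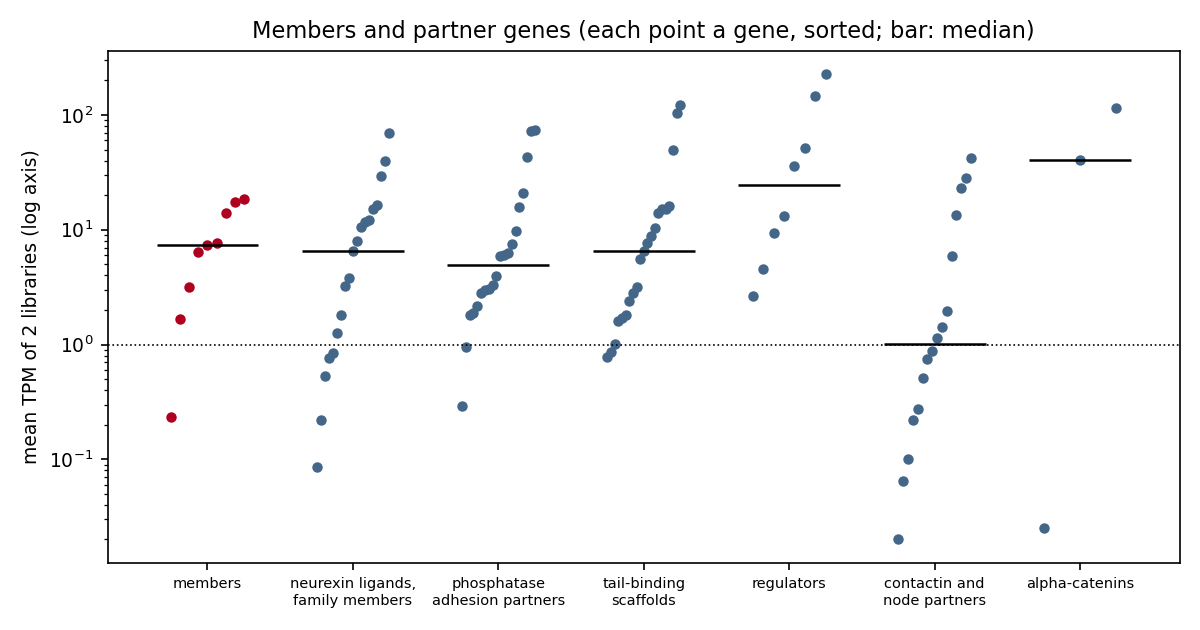
Mean TPM of the 2 libraries (log axis) for the 9 genes in red and the 6 partner lists in blue, each point a gene and each bar the median of its list. The dotted line marks 1 TPM, and the contactin and node list has its median next to it (1.01 TPM) while the regulators have the highest median among the lists with more than 3 genes (24.62 TPM).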

How the data were processed

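Total RNA of 2 midbrain pools was sequenced with a cited Smart-seq protocol, which amplifies cDNA, so counting intervals cover counting error only. Per the submitters' processing notes the assembly was mm10 and the annotation M4, and the aligner, quantifier and use of strand were not given in the sources used here. Per the file headers, the authors deposited an expected count, TPM (also as a posterior mean, and with interval bounds used here as a signal without a fixed total), FPKM and, per transcript, a percent of its gene. The level of the intervals is not stated, and the TPM of all 9 genes lay inside its interval in both libraries. Symbols, transcript structures and coordinates came from GENCODE M21 by identifier, and start-site sequences from RefSeq.

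Expected counts were rounded to whole numbers and scaled by TMM (edgeR 4.0.16). Genes whose summed count reached 20 entered a two-sided exact binomial test, with log2 ratios at a prior count of 1. In counts simulated for replicate 2 against replicate 1 with sampling noise only, 100% of genes changed 3-fold and 100% of those changed 8-fold were recovered among 17179 tested, with 0 false calls. Sampling noise is what the test assumes, so these values cannot show how it behaves under further variation between pools. Levels of pairs were compared as log2(TPM + 0.1). Spike-in rows were left out of gene totals. DESeq2 1.42.0 gave alternative size factors. The 9 genes, the 6 pairs, the partner lists and the marker lists were chosen with earlier results of these data known. Named were all 9 genes, the 3 highest of each partner list, overlapping genes at 1 TPM or more, the highest of each marker list, and further partners picked for their known role after values were seen. The near-full class, the Cntnap2-201 share, the restriction of start codon shares to protein-coding transcripts and the choice of windows and CG marking were made after values were seen. Some items that these rules take are not reported here.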

Additional observations from a re-analysis of the deposited data

How the results depend on the processing

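All 6 pairs kept their direction under other pseudocounts, posterior mean TPM, FPKM and leaving out each library. Counting near-full transcripts only, an alternative added after seeing the data, kept every direction but moved the log2 ratios of Nrxn2/Nrxn3 to -2.14, Nlgn2/Nlgn1 to 1.59, Nlgn2/Nlgn3 to -0.0788, Nlgn3/Nlgn1 to 1.67 and Cntnap1/Cntnap2 to -2.01, since fewer transcripts are summed. With no fold minimum 3 of 9 genes passed between the libraries instead of 0, also with a doubled one-sided p and scaled prior count (added after seeing the data). With 2-fold that version called 481 of 17148 genes instead of 505, and edgeR's exact test with an assumed variation called 155. Ratios near 0 changed sign with the scaling: Nrxn2 to 0.0212 and Nlgn2 to 0.0375 with spike-ins, and Nlgn3 to -2.41e-05 with DESeq2 size factors. Spike-in scaling moves all ratios by 0.058 (log2).

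Counted by reads and not by TPM, near-full transcripts were under 50% in 3 of 8 genes instead of 4 (added after seeing the data), Nlgn3 no longer among them, and the alpha share was 25.5% for Nrxn2 and 82.8% for Nrxn3, the Nrxn3 splice site 4 share 91.1%, the Nlgn1 site A share 81.9% and the Cntnap2-201 share 75.4%. With posterior mean TPM the Nrxn3 alpha share was 63.8% and the Cntnap2-201 share 92.4%. Transcript shares rest on the annotated models. At 35 and 40 counts Cntnap1 is the gene whose level depth limits most. No paired analysis was possible because there is 1 group.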
